A study of Mus musculus with 8 samples.

Results

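Acetylated histone H3 (H3ac) was examined in the chromosomal windows of the interleukin-1 genes Il1a and Il1b and of the inflammasome gene Nlrp3. The members were chosen by position only: every H3ac peak of the 4 library peak lists on mouse build GRCm39 that touched chromosome 2 from 129135000 to 129230000 (Il1a and Il1b, called the Il1 window here) or chromosome 11 from 59425000 to 59460000 (Nlrp3). Overlapping peaks were merged across lists into regions, which gave 10 regions in each window and 20 of the 81544 regions of the whole genome. Regions are numbered within a window in order of coordinate. The cells were RAW 264.7, a mouse macrophage-like line, and their treatment label reads Gel or CuNZ@Gel, with 2 H3ac immunoprecipitations for either. The series concerns a sprayable hydrogel that carries a nanozyme, a material with enzyme-like activity, meant for diabetic wounds, and the comparison is of H3ac in cells exposed to CuNZ@Gel with that in cells exposed to Gel. Exposure was to extracts for 48 h. The single treatment text given for all samples names CuNZ@Gel extracts alone, so the Gel cells are described by their treatment label. No label states a further stimulus, and whether replicates were separate cultures is not said, so p-values measure only the spread between these libraries, which may be technical.

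Il1a and Il1b encode interleukin-1 alpha and interleukin-1 beta, cytokines that act through the same receptor to start inflammation and fever. Interleukin-1 beta is made as an inactive precursor, and Nlrp3 encodes the sensor of the inflammasome, a protein complex that activates caspase-1, which cuts that precursor into its active form. In macrophages, Il1b and Nlrp3 are typical genes induced by bacterial products through nuclear factor kappa B. Acetylation of histone H3 marks promoters and enhancers in use, and a peak shows where fragments carrying the mark were enriched, not how much RNA was made.

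Gene names are not part of the lists, and no GRCm39 annotation was used here, so no peak was assigned to a gene start, exon or intron. The RefSeq gene table for GRCm38.p6 was used for gene order alone. In it, the protein-coding neighbours are Ckap2l on the lower-coordinate side of Il1a, F830045P16Rik beyond Il1b, and Zkscan17 and Olfr222 on the sides of Nlrp3. A peak near the end of a window can therefore belong to a neighbour, and this holds most of all for the strong peaks at both ends of the Il1 window. For the same reason the other genes of the pathway, such as Casp1, Pycard and Il1rn, were not analysed here.

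The promoter sequences of the 3 genes are shown because they are the regulatory DNA that the windows were chosen to hold. They come from the RefSeq promoter table of GRCm38.p6, and their positions were not converted to the build of the peaks, so whether a peak lies on them was not determined. Each reads 5′ to 3′ on the gene's strand and ends before the annotated start, and capitals mark the motif matches named below. Il1a, a 30-base stretch on chr2:129309989-129310018, minus strand, ends 17 bases before the start. Il1b covers chr2:129371140-129371389, minus strand, and Nlrp3, the first of 2 entries in the table, covers chr11:59541319-59541568, plus strand.
Il1a: tgcttGAGGAAgacTATAAAaaggcagaga
Il1b: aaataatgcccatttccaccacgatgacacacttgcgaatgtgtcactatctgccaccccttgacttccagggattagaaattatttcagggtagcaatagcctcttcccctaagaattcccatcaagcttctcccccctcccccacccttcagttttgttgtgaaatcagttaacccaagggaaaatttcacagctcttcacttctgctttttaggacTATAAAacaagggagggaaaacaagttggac
Nlrp3: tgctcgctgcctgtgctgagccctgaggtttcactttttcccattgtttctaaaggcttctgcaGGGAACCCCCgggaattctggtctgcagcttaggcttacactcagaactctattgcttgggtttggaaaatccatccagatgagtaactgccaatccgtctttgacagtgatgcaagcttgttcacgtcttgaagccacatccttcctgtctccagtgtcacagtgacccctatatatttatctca

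Exact matches on both strands were counted in windows of 300 bases, of which 250 lie before the start. Il1a and Il1b both hold TATAAA, the core of a TATA box, from 32 and 31 bases before the start, and 13.6% of the 32851 promoters of the table hold it. Il1a also holds GAGGAA, a core recognised by the macrophage factor PU.1, from 41 bases before the start (28.3% of promoters) and TGANTCA, the AP-1 motif, from 12 bases before it (7.81%), the latter outside the printed stretch. The Nlrp3 entry shown holds the nuclear factor kappa B consensus from 186 bases before the start, found in 8.46% of promoters. The other Nlrp3 entry holds GAGGAA at 3 places. TTGCGCAA, a palindrome bound by C/EBP factors (0.183%), was in none of these windows. GAGGAA and TATAAA do not overlap in Il1a, and a match is a description of letters only.

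The lists of the CuNZ@Gel libraries were shorter over the whole genome, and every value below is to be read against that. Peaks covered 42.3 and 43.2 Mb in Gel replicates 1 and 2 and 26.2 and 22.2 Mb in CuNZ@Gel replicates 1 and 2, so the CuNZ@Gel mean was 56.6% of the Gel mean. The commonest background of each list, solved from the fold and p of its peaks, stands for depth here and was 4.62 and 4.28 fragments in Gel and 3.45 and 2.46 in CuNZ@Gel. This background scales with fragment number and length together, and fragment number alone was not measured here. By this measure the CuNZ@Gel libraries were the shallower ones, and depth in this sense moved with the group. Its part in the values below was not tested apart from the settings at equal depth that are given.

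The Il1 window had fewer peaks, less covered width and a lower strongest peak in each CuNZ@Gel library than in each Gel library. The window held 9 and 8 peaks in Gel replicates 1 and 2, against 4 and 3 in the CuNZ@Gel replicates. The peaks covered 4946 and 4739 bp of the window in Gel against 1808 and 1391 bp in CuNZ@Gel. The groups did not overlap in either value. Covered width averaged 4843 ± 146 bp for Gel and 1600 ± 295 bp for CuNZ@Gel (SD, n = 2), a difference of -3243 bp, and CuNZ@Gel held 33.0% of the Gel width. The exact two-sided permutation p was 0.333, the smallest that 2 against 2 libraries allow. Such an order of widths is common. Of 10927 stretches of the same length along the genome with peaks in both Gel libraries, 88.7% likewise had both CuNZ@Gel widths below both Gel widths. For peak number and the strongest peak of a stretch no such share was counted. Among the 1511 of these with a Gel width within 20% of that of the Il1 window, CuNZ@Gel held a median of 58.5% of the Gel width, with quartiles of 48.4% and 67.8%. A lower value than that of the Il1 window was found in 6.15% of them.

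**Figure D1:**
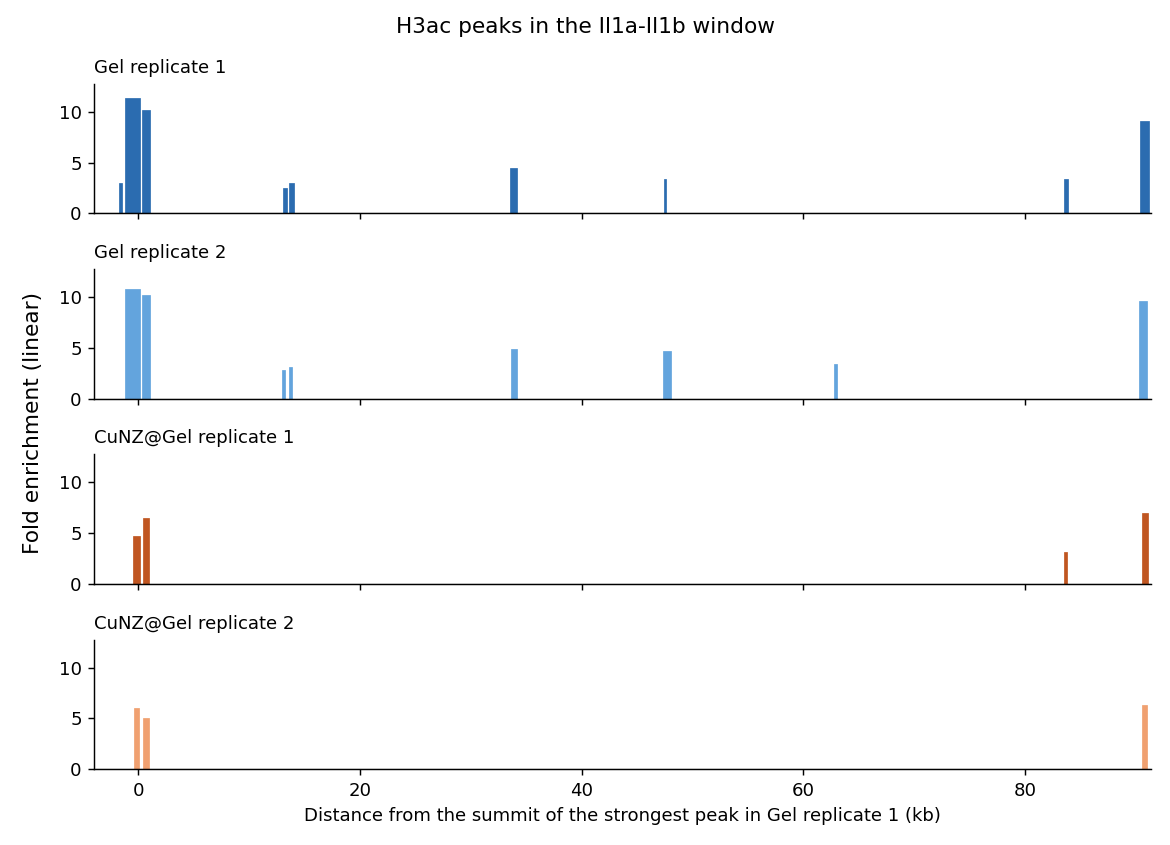
H3ac peaks of the Il1a-Il1b window in the 4 libraries. Each bar is 1 peak drawn at its true width, its height is the authors' linear fold enrichment, and the horizontal axis gives the distance in kb from the strongest summit of Gel replicate 1; the Gel libraries have 9 and 8 peaks and the CuNZ@Gel libraries 4 and 3, with none left in CuNZ@Gel between the pair at the left and the last 10 kb.

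Of the 5 regions with a peak in all 4 libraries, 3 lay in the Il1 window and 2 in the Nlrp3 window. Both CuNZ@Gel values lay below both Gel values for covered width in 4 of the 5 (74.5% of the 21909 such regions over the genome, with 1.26% the other way) and for fold in 5 of 5 (63.2%, with 4.55% the other way). For summit height, defined below, it was 4 of 5 (56.7%, with 7.2% the other way), and for summit fragments 5 of 5 (92%, with 0.0913% the other way).

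The peaks of highest fold in the Gel libraries of the Il1 window formed a pair near its lower-coordinate end, on the side where Ckap2l is the neighbouring gene. Il1 region 2, on chromosome 2 from 129137749 to 129139100, had the authors' fold, the enrichment of the summit over the local background, at 11.4 and 10.8 in Gel replicates 1 and 2. It was 4.72 and 6.07 in CuNZ@Gel replicates 1 and 2. Both Gel values lay above both CuNZ@Gel values. The peaks were 1344 and 1321 bp wide in Gel and 570 and 484 bp in CuNZ@Gel. Mean widths were 1333 ± 16.3 bp and 527 ± 60.8 bp (SD, n = 2), which left 39.5% of the Gel width. The lower-coordinate part of the region lost its peak: the CuNZ@Gel peaks began at 129138530 and 129138594, where those of Gel began at 129137749 and 129137780, and the far ends lay between 129139077 and 129139100 in all 4 libraries. Summits stayed within 65 bp of each other, at 129138965 and 129138980 in Gel and 129139016 and 129138951 in CuNZ@Gel.

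To set libraries of unlike depth side by side, the fragments at the summit were divided by the commonest background of the library, a ratio called summit height here. The summit of Il1 region 2 held 63 and 56 fragments in Gel and 20 in each CuNZ@Gel library, solved from the fold and p of the lists. The exact 95% Poisson interval, which covers counting error only, ran from 48.4 to 80.6 for the first and from 12.2 to 30.9 for each of the last. The heights were 13.7 and 13.1 in Gel and 5.80 and 8.14 in CuNZ@Gel. On the height scale the same intervals ran from 10.5 to 17.5 and from 9.87 to 17.0 in Gel replicates 1 and 2. In CuNZ@Gel replicates 1 and 2 they ran from 3.54 to 8.96 and from 4.97 to 12.6. The interval of CuNZ@Gel replicate 2 thus overlapped both Gel intervals, and that of CuNZ@Gel replicate 1 overlapped neither. The mean height was 13.4 ± 0.410 in Gel and 6.97 ± 1.65 in CuNZ@Gel (SD, n = 2), or 52.2% of Gel, with an exact two-sided permutation p of 0.333. The distance between groups exceeded the spread within each of them.

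Il1 region 2 stood low among regions of like strength. Regions with a peak in all 4 libraries and a mean Gel fold within 20% of its own numbered 3959. Their height in CuNZ@Gel was a median of 78.8% of that in Gel, with quartiles of 70.1% and 88.0%, and 1.82% of them had a lower share than Il1 region 2. For covered width the median was 75.9%, the quartiles were 65.4% and 86.3%, and 1.79% lay lower. The authors' fold gave the same picture, with 48.7% for the region and a median of 73.4%. These shares describe where the region lies and are no test, since the region is 1 of 5 looked at in this way.

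Il1 region 3 lay next to it, on chromosome 2 from 129139354 to 129140057. Its fold was 10.2 in each Gel library and 6.52 and 5.03 in CuNZ@Gel replicates 1 and 2. Its peaks were 701 and 680 bp wide in Gel and 510 and 494 bp in CuNZ@Gel. The groups did not overlap in either value. Summit height was 12.1 and 12.8 in Gel and 8.12 and 8.14 in CuNZ@Gel, so CuNZ@Gel held 65.1% of the Gel height. Among 4028 regions of like Gel fold the median was 79.6%, and 13.1% had a lower share. Covered width, at 72.7% of Gel, was close to their median of 75.1%. They were matched on fold and not on width. Regions of like fold in both Gel libraries had a median Gel width of 1259 bp, against a mean of 690.5 bp here. The summits lay at 129139689 and 129139668 in Gel and at 129139691 and 129139633 in CuNZ@Gel.

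At the other end of the window, Il1 region 10 lay on chromosome 2 from 129229304 to 129230125 and crossed the window's end. Its fold was 9.08 and 9.65 in Gel and 6.97 and 6.36 in CuNZ@Gel. The peaks were 734 and 685 bp wide in Gel and 546 and 413 bp in CuNZ@Gel. Summit heights were 10.8 and 11.7 in Gel and 8.99 and 8.55 in CuNZ@Gel, again without overlap of the groups. CuNZ@Gel held 77.9% of the Gel height, near the median of 80.4% over 4172 regions of like Gel fold. It had the highest fold of the window in both CuNZ@Gel libraries. In CuNZ@Gel replicate 2 this rested on 21 summit fragments against 20 in each of Il1 regions 2 and 3, and in replicate 1 on 31 against 20 and 28. The exact Poisson intervals of these counts overlap within each library, so no order of the 3 regions is read from them.

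Between these ends, the stretch that holds the body of the Il1 window had H3ac peaks of lower fold than at the ends in Gel and 1 peak in CuNZ@Gel. Il1 regions 4, 5, 6 and 7 had peaks in both Gel libraries and in neither CuNZ@Gel library. Il1 region 4, from 129151926 to 129152365, had a fold of 2.50 and 2.84 in Gel replicates 1 and 2. Il1 region 5, from 129152559 to 129153052, had 3.03 and 3.09. These ranked low, at the 2.79th and 12.8th percentile of fold in their lists for region 4 and at the 19.9th and 25.3rd for region 5. Il1 region 6, from 129172484 to 129173155, was the strongest of the 4, with a fold of 4.45 and 4.92, widths of 672 and 562 bp and 24 and 25 summit fragments, at the 60.2nd and 67.2nd percentile of its lists. Il1 region 7, from 129186281 to 129187018, had 3.38 and 4.73, with widths of 199 and 738 bp that differed widely between the Gel libraries, as did its percentiles of 35.0 and 65.4.

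Gel peaks of low fold were often absent from the CuNZ@Gel lists, and the missing peaks of the Il1 window are to be read against that. Of the 39317 regions that both Gel libraries called over the genome, 24.9% had no CuNZ@Gel peak, 19.4% had a peak in 1 CuNZ@Gel library and 55.7% in both. In both windows together 6 of 12 such regions had no CuNZ@Gel peak, 4 of 7 in the Il1 window and 2 of 5 in the Nlrp3 window, while 1 had a peak in a single CuNZ@Gel library and 5 in both. Among regions of like Gel fold the share with no CuNZ@Gel peak was 72.3% for Il1 region 4, 63.2% for region 5, 39.4% for region 7 and 24.0% for region 6. Another 33.0% of the regions like Il1 region 6 had a peak in a single CuNZ@Gel library and 43.0% in both. When summit and background of each Gel peak were scaled to the depth of the shallowest library, both Gel peaks of Il1 regions 6 and 7 still passed the limit that CuNZ@Gel replicate 2 set, a −log10 p of 3.41. For Il1 region 6 the scaled values were 5.70 and 7.26, and for Il1 region 7 they were 3.62 and 6.47. The Gel peaks of region 4 and the replicate 1 peak of region 5 did not pass, with values between 2.03 and 2.99. This scaling, used here and below, left out counting error and started from peaks that Gel had already called. Whether depth accounts for the missing peaks was not tested.

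The remaining Il1 regions rested on 1 Gel library. Regions 1 and 8 were seen in Gel replicate 1 and in Gel replicate 2, respectively, with a fold of 3.03 and 3.41. Region 9, from 129222517 to 129222825, had a peak in Gel replicate 1, with a fold of 3.36, and in CuNZ@Gel replicate 1, with 3.15. It was the one region between the ends of the window that a CuNZ@Gel library also held. No region of either window had a CuNZ@Gel peak without a Gel peak. The share of such regions over the genome was not counted, so this is not read as a feature of the windows. Long stretches of the Il1 window had no peak in any of the 4 libraries. The longest ran over 20508 bp, from 129202009 to 129222516, followed by 19431 bp from 129153053 to 129172483 and 14710 bp from 129187019 to 129201728. Absence of a peak says that enrichment did not pass the authors' threshold at this depth, not that H3ac was absent.

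The Nlrp3 window held 1 broad, strong domain that all 4 libraries shared. Nlrp3 region 4, on chromosome 11 from 59431358 to 59435654, had a fold of 21.4 and 22.0 in Gel replicates 1 and 2 and of 15.7 and 15.6 in CuNZ@Gel replicates 1 and 2. Among the 21909 regions with peaks in all 4 libraries, its Gel width exceeded that of 98.0% and its Gel fold that of 91.0%. It was thus stronger than any region of the Il1 window in all 4 libraries. Its summit held 119 and 115 fragments in Gel and 69 and 53 in CuNZ@Gel, with exact 95% Poisson intervals of 98.6 to 142 for the first and 39.7 to 69.3 for the last. Summit heights were 25.8 and 26.8 in Gel and 20.02 and 21.6 in CuNZ@Gel. On the height scale the intervals ran from 21.4 to 30.9 and from 22.2 to 32.2 in Gel replicates 1 and 2. In CuNZ@Gel replicates 1 and 2 they ran from 15.6 to 25.3 and from 16.2 to 28.2, so each overlapped both Gel intervals. The mean height was 26.3 ± 0.747 in Gel and 20.8 ± 1.10 in CuNZ@Gel (SD, n = 2), or 79.0% of Gel, with an exact two-sided permutation p of 0.333. The height values themselves did not overlap between the groups.

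**Figure D2:**
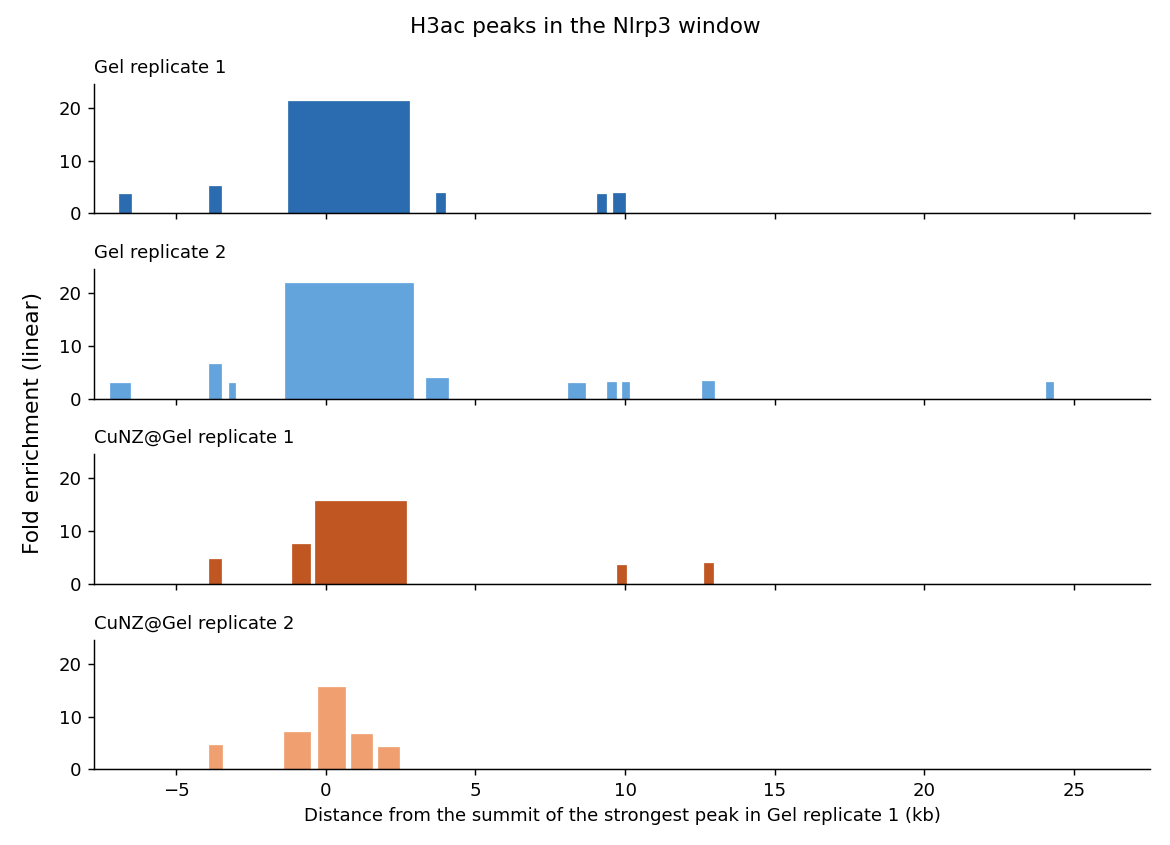
H3ac peaks of the Nlrp3 window in the 4 libraries, drawn as for the Il1a-Il1b window: each bar is 1 peak at its true width, its height is the authors' linear fold enrichment, and the horizontal axis is the distance in kb from the strongest summit of Gel replicate 1. The broad domain is 1 peak in each Gel library, 2 peaks in CuNZ@Gel replicate 1 and 4 peaks in CuNZ@Gel replicate 2.

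Set against regions of like Gel fold, the Nlrp3 domain kept about the usual share of its height. Over 2380 such regions the median height in CuNZ@Gel was 73.2% of that in Gel, with quartiles of 66.3% and 80.2%, and 71.3% of them had a lower share than the 79.0% of the domain. Peaks covered 4019 and 4287 bp of it in Gel and 3629 and 3148 bp in CuNZ@Gel. The means were 4153 ± 190 and 3389 ± 340 bp (SD, n = 2), so 81.6% of the Gel width was covered. The median of the like regions was 79.4%, but they were matched on fold and not on width. Regions of like fold in both Gel libraries had a median Gel width of 2071 bp, below that of the domain. Of the 1232 regions with peaks in all 4 libraries and at least 3000 bp in each Gel library, whatever their fold, 90.7% had both CuNZ@Gel widths below both Gel widths, so this order is the usual one.

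The domain was whole in Gel and broken in CuNZ@Gel. Each Gel library called it as 1 peak. CuNZ@Gel replicate 1 had 2 peaks, of 588 and 3041 bp, and CuNZ@Gel replicate 2 had 4, of 852, 911, 689 and 696 bp. In both CuNZ@Gel libraries the first peak ended at 59432209, and the next began at 59432383 and 59432469. Of the 1232 wide shared regions, 25.3% were likewise 1 peak in each Gel library and several in each CuNZ@Gel library, and 6.06% of all 21909 were. The strongest summit stayed in place, at 59432742 and 59432750 in Gel and 59432670 and 59432698 in CuNZ@Gel, a range of 80 bp where the median range over the like regions was 97 bp.

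Nlrp3 region 2, a small region from 59428828 to 59429257, kept its full width. Its peaks were 413 and 414 bp wide in Gel and 390 and 417 bp in CuNZ@Gel. These widths overlapped between groups, with a difference of -10.0 bp and an exact two-sided permutation p of 1. CuNZ@Gel thus held 97.6% of the Gel width. The 5698 regions of like Gel fold had a median of 64.0% and quartiles of 50.3% and 78.8%, and 93.1% of them lay lower. They were matched on fold and not on width. Regions of like fold in both Gel libraries had a median Gel width of 732 bp, against a mean of 413.5 bp here. The share was not compared with that of regions of like width, so it is not read as unusual. Its fold was 5.17 and 6.62 in Gel and 4.72 and 4.63 in CuNZ@Gel. Summit heights were 6.07 and 7.94 in Gel and 5.80 and 6.10 in CuNZ@Gel, which overlap, with an exact two-sided permutation p of 0.667. The share of the Gel height, 85.0%, was close to the median of 88.2% over the like regions. The summit was called at 59428980 and 59428968 in Gel and at 59429085 and 59429065 in CuNZ@Gel, a range of 117 bp, below the median range of 208 bp of the like regions.

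**Figure D3:**
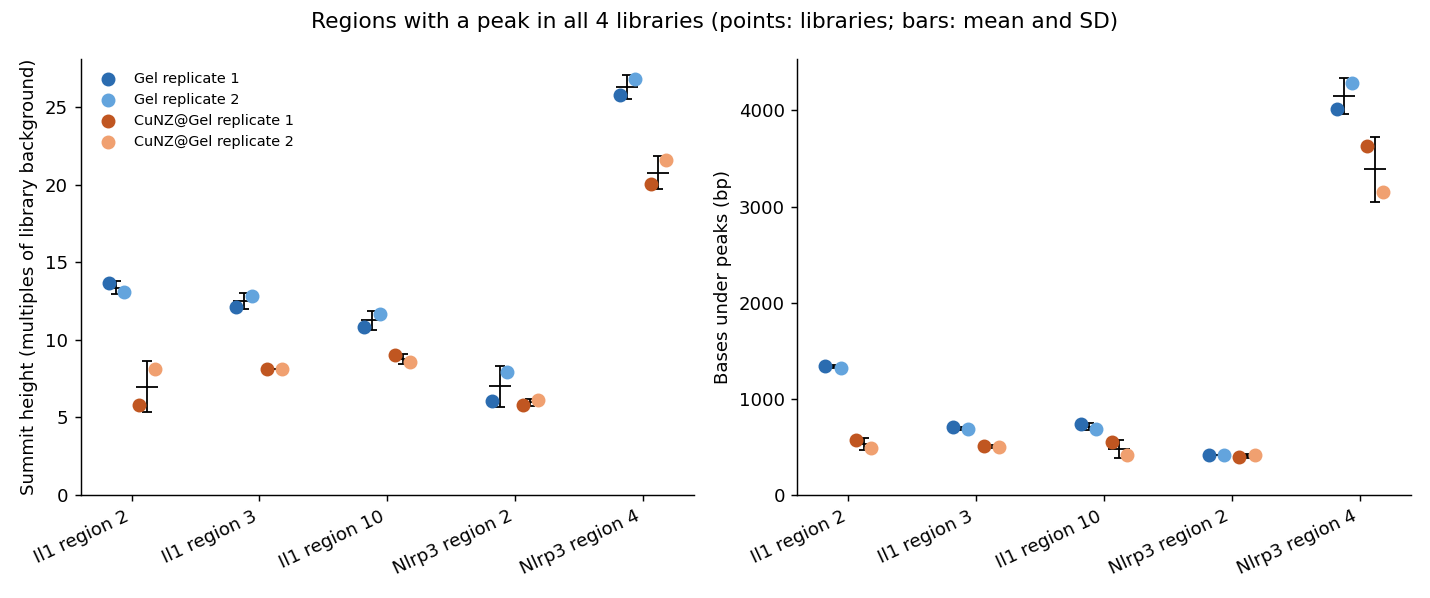
Summit height in multiples of the library background (left) and bases under peaks in bp (right) for the 5 regions with a peak in all 4 libraries. Points are libraries and bars give mean and SD (n = 2); heights of the groups overlap in Nlrp3 region 2 alone, and the widest gap in proportion to Gel is in Il1 region 2, with 52.2% of the Gel height and 39.5% of the Gel width.

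The other 8 Nlrp3 regions had a fold between 3.03 and 4.05, at the 21.6th to 53.7th percentile of their lists. Regions 1 and 5 had peaks in both Gel libraries and none in CuNZ@Gel. Nlrp3 region 1, from 59425519 to 59426219, had a fold of 3.56 and 3.03 in Gel, and 58.0% of regions of like Gel fold had no CuNZ@Gel peak. Nlrp3 region 5, just beyond the domain from 59436078 to 59436826, had 3.92 and 3.97, and the share was 42.6%. At the depth of the shallowest library both Gel peaks of region 5 still passed the limit, and 1 of the 2 peaks of region 1 did. Nlrp3 region 8, from 59442133 to 59442864, had 1 peak in Gel replicate 1, 2 in Gel replicate 2 and 1 in CuNZ@Gel replicate 1, with a fold between 3.09 and 3.92, and none in CuNZ@Gel replicate 2. Nlrp3 region 9, from 59445328 to 59445701, had a fold of 3.41 in Gel replicate 2 and of 4.05 in CuNZ@Gel replicate 1, and no peak in the other two libraries. The other 4 regions, numbered 3, 6, 7 and 10, were each seen in 1 Gel library, 3 of them in replicate 2.

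Summed over the Nlrp3 window, the difference was smaller in proportion than in the Il1 window, and the Gel libraries were further apart. There were 6 and 10 peaks in Gel and 5 in each CuNZ@Gel library. The peaks covered 5753 and 8057 bp in Gel and 4650 and 3565 bp in CuNZ@Gel, without overlap of the groups. The means were 6905 ± 1629 and 4108 ± 767 bp (SD, n = 2), a difference of -2798 bp, and CuNZ@Gel held 59.5% of the Gel width. The exact two-sided permutation p was 0.333. Of 18967 stretches of this length with peaks in both Gel libraries, 86.6% had less covered width in both CuNZ@Gel libraries, and the 1095 of like Gel width had a median of 61.6%, close to the Nlrp3 window. Without Gel replicate 2 the difference was -1646 bp, and without Gel replicate 1 it was -3950 bp, so the size rested on which Gel library was used. It was -1668 bp over peaks with a −log10 q of at least 5 and -1494 bp with lists of equal length. Whether the windows differ from each other in their response was not tested.

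**Figure D4:**
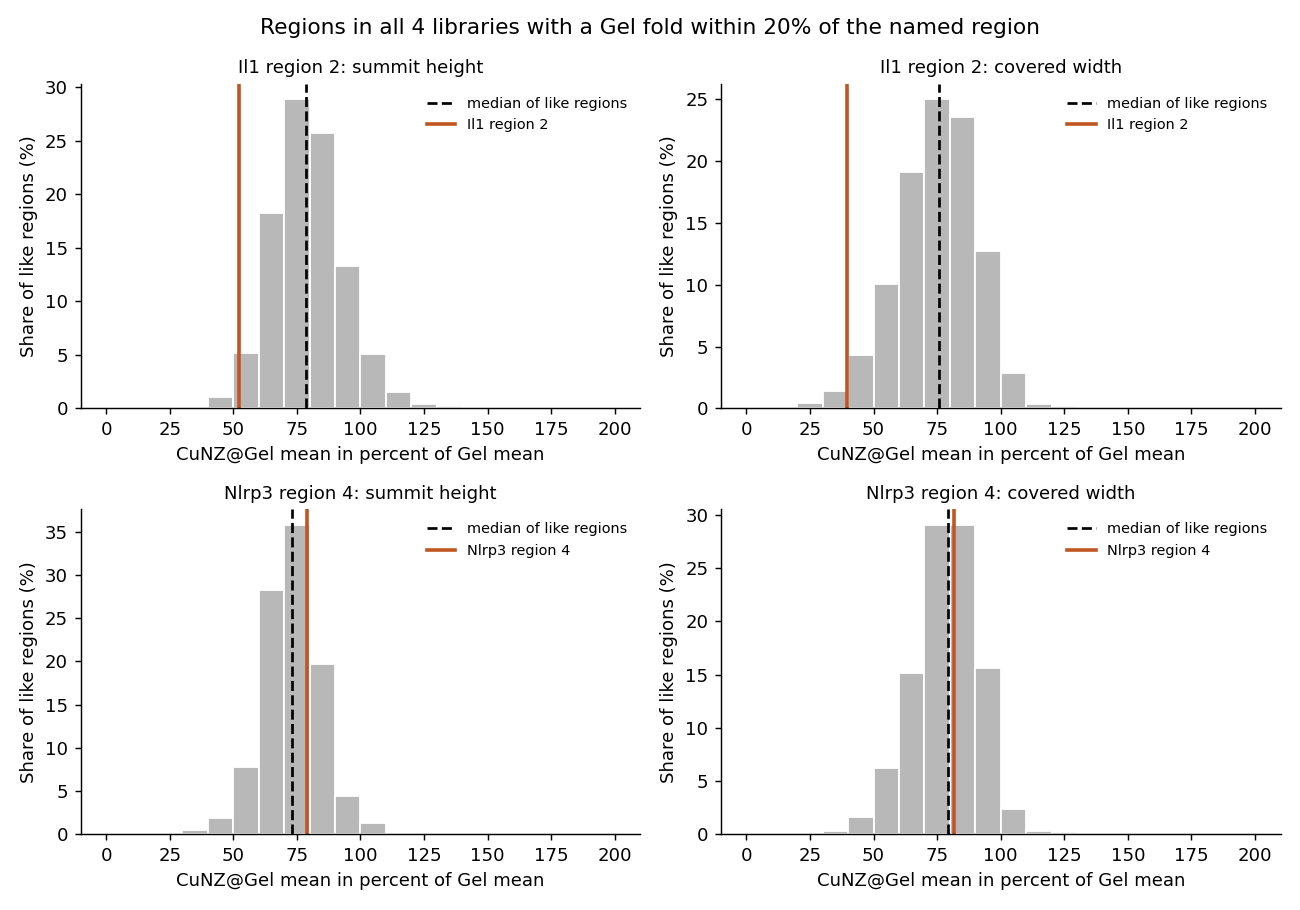
Distribution of the CuNZ@Gel mean in percent of the Gel mean for regions with peaks in all 4 libraries and a Gel fold within 20% of Il1 region 2 (upper panels, 3959 regions) or of Nlrp3 region 4 (lower panels, 2380 regions), for summit height (left) and covered width (right). Bars give the share of like regions per 10 percentage points, the dashed line their median and the solid line the named region, which lies far to the left for Il1 region 2 and slightly to the right of the median for Nlrp3 region 4.

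A test across the whole genome called no bin of either window. Bases under peaks were compared in 68188 bins of 4 kb with limma, and at a Benjamini-Hochberg adjusted p of 0.05 none was called lower (0%) or higher (0%), while 16254 bins, 23.8%, had an unadjusted limma p under 0.05. Of the 16 bins in the windows, 6 had an unadjusted limma p under 0.05, 3 in each window, and in all 16 the CuNZ@Gel mean was lower, as it was in 89.8% of all bins. The smallest adjusted p was that of the bin on chromosome 2 from 129136001 to 129140000, which holds most of the pair of strong peaks. It had 2282 and 1968 bp under peaks in Gel and 1080 and 978 bp in CuNZ@Gel, a difference of -1096 bp (SE 160, limma, adjusted p = 0.0771). Over the alternative settings that kept this bin, used all 4 libraries and had no replicate block, its adjusted limma p was 0.027 to 0.103. The bin with Il1 region 6 had 672 and 562 bp in Gel and none in CuNZ@Gel (difference -617 bp, SE 112, limma adjusted p = 0.0846). With regions in all 4 libraries as the unit, limma gave Il1 region 2 a difference of -806 bp (SE 105, adjusted p = 0.0268), and 17.6% of the 21909 regions were called lower. Without any 1 library, the difference of Il1 region 2 was -849 to -763 bp. Those fits leave 1 library in a group, so only the size is given. The call rests on the fit to all 4 libraries, and nothing here shows that it holds without any 1 of them. The Nlrp3 domain had a difference of -765 bp in that fit (SE 251, limma adjusted p = 0.0865), and the adjusted limma p of the other 3 regions in all 4 libraries was 0.142 to 0.912.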

How the data were processed

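Chromatin immunoprecipitation sequencing of H3ac covered 2 Gel and 2 CuNZ@Gel libraries of RAW 264.7 cells; 4 input libraries were not analysed here. The submitters' processing notes name MACS2 2.2.8, deepTools 3.5.6, SAMtools 1.17, fastp and the build GRCm39. The aligner, and how peaks were called, is not given in the sources used here. Each deposited library list gives for each peak a fold enrichment ratio, a −log10 p, a −log10 q and a summit. The score in the deposited lists is the −log10 q times 10, cut to a whole number, for at least 99.9856% of peaks. The deposited group lists were not used.

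Peaks were merged across libraries where they overlapped by at least 1 bp. Summit fragments and background were solved from fold, taken as fragments plus 1 over background plus 1, and from the Poisson p. This succeeded for 100% of peaks at a relative tolerance of 0.0001, and returned the simulated fragments in 99.4% of 5000 simulated peaks. Height is summit fragments over the commonest background of the list, a value that scales with fragment number and length together. Window values were compared by exact permutation over 6 assignments, and bases under peaks in 4 kb bins by limma 3.58.1 (trend and robust, R 4.3.3). In simulated data with 200 of 68188 bins changed by 1000 bp none was called, and with 2000 bp 30.5% were. With 13638 bins changed by 1000 bp, 84.8% were called. Simulated widths were drawn from a normal distribution, could be negative, and changed up or down at random. In the data 89.8% of bins had a lower CuNZ@Gel mean, so these shares do not give the power of the fit to the data. Fold and height are the values of separately called lists, and regions of like Gel fold (within 20%) serve as a description. Every merged region in the windows is accounted for, those in 2 or more libraries with positions and values. Alternatives were a −log10 q of at least 5, equal list length, equal depth, other bins and units, other tolerances, 50% overlap and leaving out each library. The members, lists and windows were chosen with earlier results of these data known, and stretches of the windows' lengths were added after seeing the data. Planned values for other pathway genes needed a GRCm39 annotation and were not made.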

Additional observations from a re-analysis of the deposited data

How the results depend on the processing

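Covered width and strongest summit height of both windows were lower in CuNZ@Gel in all 30 alternatives, most of which could not turn the sign: the groups do not overlap, and no filter removed a strongest summit. The difference of covered width in the Il1 window was -3243 bp as deposited and ranged from -3452 to -3035 bp without any 1 library; it was -2325 bp both with a −log10 q of at least 5 and with equal list length, and -2564 bp at equal depth. In the Nlrp3 window it was -2798 bp and ranged from -3950 to -1646 bp; in the same 3 settings it was -1668, -1494 and -2052 bp. Height differences without any 1 library ranged from -4.88 to -4.30 in the Il1 window and from -6.29 to -4.74 in the Nlrp3 window. The strongest summit of the Il1 window was in region 2 in Gel and in region 10 in CuNZ@Gel. Its difference therefore sets unlike regions side by side, and for Il1 region 2 alone it was -6.39 as deposited. In the Nlrp3 window it was region 4 in all 4 libraries. At equal depth only peaks are dropped, and their widths are not shrunk.

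Regions of both Gel libraries with no CuNZ@Gel peak numbered 6 of 12 in the windows. There were 2 of 7 (28.6%, against 22.4% over the genome) with a −log10 q of at least 5 (Il1 region 6 and Nlrp3 region 5), and 3 of 9 (33.3% against 17.7%) at equal depth (these and Il1 region 7). There were 2 of 7 (28.6% against 10.5%) where the lists had equal length. Without CuNZ@Gel replicates 1 and 2 in turn there were 7 of 12 (58.3% against 38.6%) and 6 of 12 (50% against 30.7%). Without Gel replicates 1 and 2 in turn there were 11 of 18 (61.1% against 46%) and 8 of 15 (53.3% against 44%). Over the genome they numbered 9781, and 5907, 5779, 2833 and 12075 to 27491 in the same settings. A lone Gel library counts its unshared regions too. Median heights of like regions within 50% of the Gel fold moved to 82.0% for Il1 region 3, 83.4% for Il1 region 10 and 74.8% for Nlrp3 region 4, and the other 17 of 20 values moved by less than the spread between libraries.

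Bins of 4 kb called lower and higher numbered 0 and 0. They were 2383 and 3 with 10 kb bins, 3860 and 13 for regions in all 4 libraries, 4761 and 19 at a mean of at least 500 bp, and 0 to 21376 and 0 to 84 without any 1 library, which assumes that the lone library of a group varies as the others do. The cause was not tested. With a replicate block they were 11123 and 32, and 7 of the 16 window bins were called lower, against 16.3% of all bins; the bin of the strong Il1 pair then had an adjusted limma p of 6.43e-06; same-numbered libraries correlated at 0.00919 in their deviations, so nothing shows that the numbers pair them.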
